A study of Homo sapiens with 7 samples.

Results

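The sites described here are 254 isolated read clusters of the translation initiation factor subunit eIF3a, out of 3566 clusters on the primary chromosomes of hg19. A cluster was included if no other cluster lay within 1000 nt of it on the same strand, if its longest entry in the deposited list was less than 10 nt shorter than its coverage profile, and if its summit was at least 7 reads. The clusters were thus chosen by measured values, and their summits, and all that follows from summit height, are given as a description without a test. The summit is the highest read coverage reached anywhere in the cluster. Of the 3566 clusters, 2361 were isolated, 1430 of these were fully listed, and 254 of the fully listed ones reached the summit minimum. The 254 clusters amounted to 7.12% of the primary clusters and held 5256 of 38419 reads (13.7%).

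The series held 7 samples of human cell lines. The sites come from its 2 replicates of eIF3a PAR-iCLIP in HEK293T, an established embryonic kidney line that carries the SV40 T antigen. The labels name no genetic change made for the experiment. Per the labels, cells took up 4-thiouridine (given as 100 mM) for 8 h and were irradiated at 354 nm, and eIF3 with its crosslinked RNA was then pulled down with an antibody against eIF3a. The other 5 samples, N6-methyladenosine (m6A) libraries of heat-shocked or control HEK293T and HepG2 cells, were not analysed here. The list keeps no replicates apart and has no untreated or antibody control, so no value has a replicate error or a background level. Intervals below cover counting error only.

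As background, eIF3 is the largest of the eukaryotic initiation factors. It binds the small ribosomal subunit, helps to bring in the initiator tRNA and the mRNA, and can also contact some mRNAs directly, often in their 5′ leaders, where such contacts can raise or lower translation. The subunit eIF3a is a scaffold of the complex. In PAR-iCLIP, 4-thiouridine in the RNA is joined to nearby protein by ultraviolet light, reverse transcription tends to stop beside the crosslinked base, and the start of a read therefore lies close to the contact. A stack of reads with closely spaced starts marks a short stretch of RNA that was recovered repeatedly.

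Reads and their starts were recovered by resolving each profile into 25-nt reads, which left no remainder in any of the 3113 distinct profiles. The profiles run from left to right along the genome. This was seen from read sets listed at more than 1 locus. In 8 such sets with loci on both strands, the profile of 1 strand was the mirror image of the other, and in 0 sets both strands had the same order. Profiles of minus-strand clusters were therefore turned, and positions within a cluster are counted from 1 at its 5′ end. Genes, exons and sequence of hg19 were not used here. Each site is therefore given by its chromosome, first and last listed base and strand. The ends are uncertain by 1 nt.

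The word "high" needs its scale. The 254 summits lay between 7 and 22 reads, with a median of 8.5 and quartiles of 7 and 11, where the highest summit of all primary clusters was 24. A summit of 7 or 8 reads was found in 127 of the 254 clusters. Summits of 10 or more were found in 102 clusters (40.2%) and of 15 or more in 29 (11.4%). Of the 37 primary clusters with summits of 20 or more, only 4 met the rule. The rule kept 254 of the 999 primary clusters with summits of at least 7 (25.4%), since 358 of those 999 had same-strand company and 387 were isolated without a full-length entry.

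**Figure D1:**
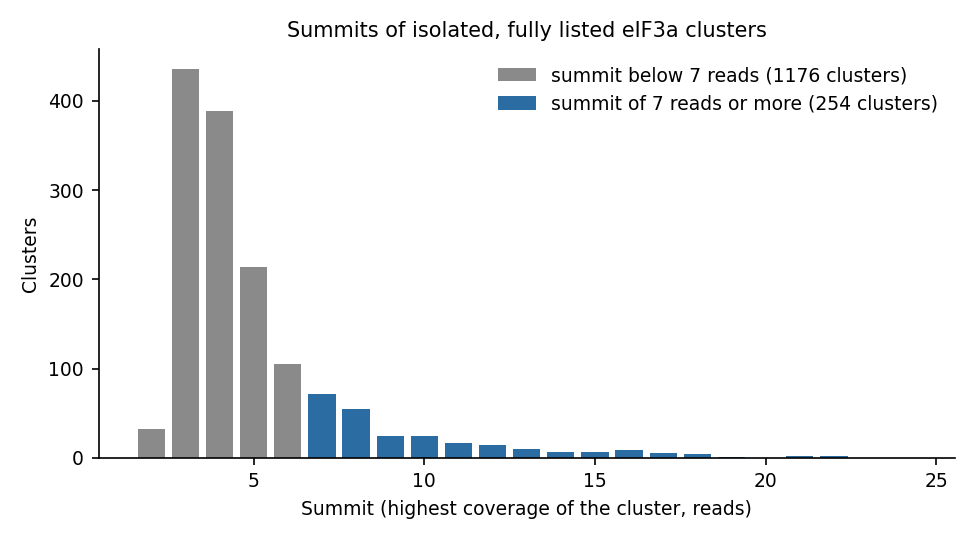
Number of isolated, fully listed clusters (vertical axis) by summit in reads (horizontal axis), with the 254 clusters of 7 reads or more in blue and the 1176 lower clusters in grey. The counts fall from 436 clusters at 3 reads to 105 at 6 and 72 at 7 with no gap at the threshold.

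The threshold cut through a continuous distribution. Just inside it were 72 clusters with a summit of 7, which held a median of 11 reads over a median of 76 nt. Just outside were 105 clusters with a summit of 6, with a median of 8 reads over 65 nt. The cluster of summit 7 with the most reads, 25 over 180 nt, lay on chr12:56435689-56435867 on the plus strand, followed by one of 23 reads over 185 nt on chr2:162164935-162165115 on the plus strand. At a summit of 6, the clusters with the most reads were chrX:106871745-106871939 on the plus strand, with 22 reads, and chr18:54305680-54305832 on the minus strand, with 19 reads. Clusters on both sides of the threshold thus overlapped in their number of reads.

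The 20 highest clusters lay on 11 chromosomes, 13 on the plus and 7 on the minus strand, and held between 21 and 74 reads over 73 to 378 nt. Coverage in 11 of them rose to a single hump, and in 9 it had several. A hump is a maximum of at least 4 reads, parted from the next by a fall to 50% of its height or less and a later rise to at least 2 times the lowest coverage between them. Ties in summit were ordered by reads and then by position.

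The highest summit, 22 reads, was reached by a pair of sites. The first, chr6:62284022-62284156 on the plus strand, held 53 reads over 136 nt in 2 separate humps. Its summit lay at nt 54 to 59, coverage then fell to 1 read, and a second hump of 15 reads followed at nt 112. These are 2 stacks of reads joined by a single overlapping read into 1 cluster. The other site, chr1:203830725-203830845 on the plus strand, held 50 reads over 122 nt with its summit at nt 64. Its profile had 1 hump by the definition used, with a longest run of 17 adjacent positions at each of which a read started.

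Summits of 21 reads followed on the minus strands of chromosomes 1 and 14. On chr1:8938639-8938779, 64 reads over 143 nt reached their summit in the downstream part, between nt 98 and nt 105. On chr14:21737457-21737586, 60 reads over 132 nt formed a first hump of 15 reads at nt 25 and the summit between nt 83 and nt 91, and coverage between them never fell below 5 reads. This site had 19 adjacent positions with a read start, the longest run of the 254 clusters. A summit of 19 reads was found once, on chr5:72794250-72794414 on the plus strand, where 69 reads over 167 nt stacked highest near the 5′ end, between nt 25 and nt 42, and then declined.

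The 4 sites with a summit of 18 showed how differently the same height can be built. On chr17:66031848-66031956, plus strand, 50 reads over 113 nt gave a summit at nt 25. On chr11:809954-810039, plus strand, 40 reads filled 92 nt. On chr11:18416108-18416183, plus strand, only 23 reads over 77 nt were needed, of which 78.3% covered the summit at nt 41. On chr14:102276201-102276279, plus strand, 23 reads also sufficed, with the summit at nt 24 to 26 and a low second hump of 4 reads at nt 60.

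Summits of 17 reads were found at 5 sites. The one with the most reads, chr11:10830253-10830489 on the minus strand, spread 74 reads over 238 nt in 3 humps of 11, 15 and 17 reads that rose in height from 5′ to 3′, at nt 40, 100 and 168. On chr14:103800792-103800907, plus strand, humps of 12 and 17 reads stood at nt 31 and nt 93 with a low of 2 reads between them. On chr15:78832763-78832881, plus strand, humps of 14 and 17 reads stood at nt 45 and nt 79 with a low of 6. The remaining sites were compact: chr1:228270405-228270479 on the plus strand and chr16:3421979-3422050 on the minus strand each held 21 reads, over 76 and 73 nt, and in each 81.0% of the reads covered the summit.

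The last 6 of the 20 had summits of 16 reads. The longest of all 254 clusters was among them, chr1:115292451-115292827 on the minus strand, with 74 reads over 378 nt. Its 4 humps of 6, 4, 10 and 16 reads lay at nt 25, 119, 210 and 309, so its summit was close to the 3′ end. The opposite order was seen on chr17:62502238-62502409, minus strand, where humps of 16, 9 and 5 reads at nt 34, 113 and 156 declined from 5′ to 3′ and 51 reads covered 179 nt. On chr8:56986943-56987090, minus strand, 48 reads over 150 nt formed humps of 16 and 14 reads at nt 41 and nt 115. The other 3, all on the plus strand, had 1 hump each: chr7:44836251-44836392 with 51 reads, chr12:96252725-96252851 with 39 reads and chr12:6645660-6645742 with 31 reads.

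The 254 clusters held between 7 and 107 reads each, with a median of 16 and quartiles of 11 and 26. Their profiles were 32 to 378 nt long, with a median of 98 nt. Both follow the summit height that chose the clusters, so they are given as a description. The 1176 isolated, fully listed clusters with lower summits had a median of 4 reads over 47 nt. The 387 isolated clusters of at least 7 reads at the summit without a full-length entry had a median of 21 reads over 124 nt. The 229 fully listed ones with a same-strand neighbour within 1000 nt had a median of 15 reads over 86 nt.

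Read starts were nearly all used once. The 254 clusters held 5253 positions with a read start, and 3 of these positions, in 3 clusters, held 2 reads. With 1 read per start a summit cannot exceed the read length of 25, so a summit counts how many of the 25 positions that could contribute a read did so. The summits of 22 used 22 of the 25. How duplicate reads were treated is not stated in the sources at hand, and reads from the same position cannot be told apart from copies of 1 molecule. The median longest run of adjacent starts was 4 nt, and 12 clusters had a run of at least 10. Among these was chr9:19380194-19380235 on the minus strand, where 15 reads, 12 of them from adjacent positions, all overlapped. It is singled out here after its values were seen.

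The share of a cluster's reads that covered its summit ranged from 14.0% to 100%, with a median of 53.8%. In 32 clusters (12.6%) every read overlapped every other at the summit, and these clusters were single stacks. The lowest share, 14.0%, belonged to the site with the most reads, chr12:57081782-57082098 on the minus strand. Its 107 reads lay over 318 nt in 4 humps of 15, 11, 15 and 11 reads at nt 68, 146, 257 and 292, and its summit of 15 was reached at separate places between nt 68 and nt 259. The summit alone would place this site behind 23 others.

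**Figure D2:**
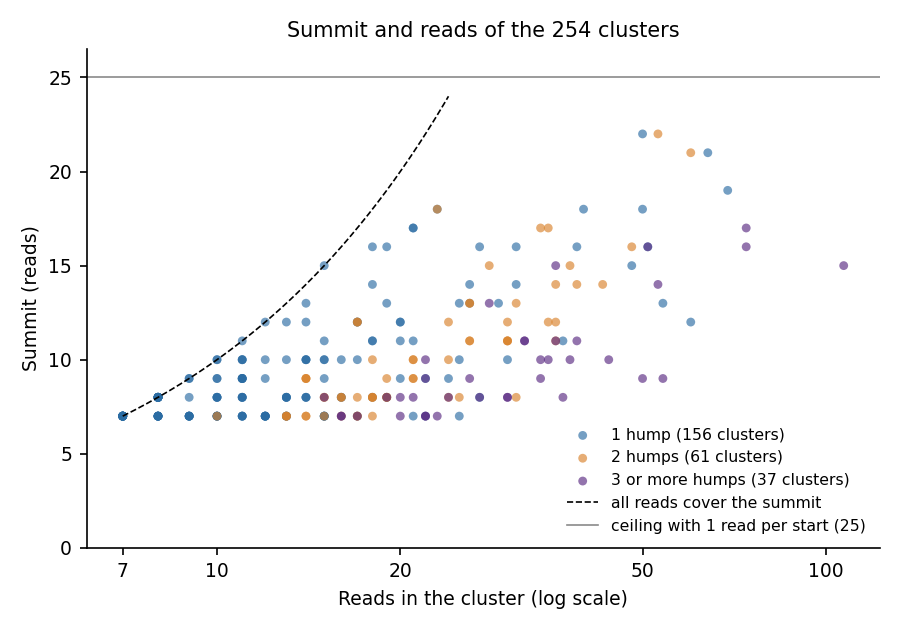
Summit in reads (vertical axis) against reads in the cluster (horizontal axis, log scale) for the 254 clusters, coloured by number of humps, with the curve on which all reads cover the summit (dashed) and the ceiling of 25 (grey). The 32 clusters on the dashed curve are single stacks, and the cluster of 107 reads at the right has a summit of 15.

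The coverage had 1 hump in 156 of the 254 clusters (61.4%), 2 humps in 61 and 3 or more in 37 (14.6%). Clusters with 1 hump had a median of 12 reads over 74 nt. Those with 2 humps had a median of 21 reads over 116 nt, and those with 3 or more 30 reads over 171 nt. Median summits were alike, 8, 9 and 9 reads. Clusters with more humps were longer and held more reads, which the definition of a hump favours, since each takes at least 4 reads. Several humps were seen in 14 of the 131 clusters up to 100 nt long and in 84 of the 123 longer ones (68.3%). The summit was 1 continuous stretch in 193 clusters (76.0%, 95% Wilson interval 70.4 to 80.8) and was reached at separate places in the other 61.

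The 5 longest clusters, after the one of 378 nt and the one of 318 nt already described, included chr7:135661791-135662103 on the minus strand. Its 54 reads over 314 nt formed 6 humps of 6, 5, 8, 9, 4 and 6 reads. On chr17:4843795-4844103, plus strand, 50 reads over 310 nt formed 5 humps with the highest, 9 reads, at nt 178. On chr12:46766316-46766556, minus strand, 32 reads over 242 nt formed 7 humps, the most of any of the 254, and only the one at nt 153 exceeded 5 reads, with 11. These 3 sites had low stretches of 1 or 2 reads between their humps.

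The 5 shortest clusters were single stacks of 7 to 9 reads over 32 to 35 nt. On chr4:39979174-39979204, minus strand, 8 reads started at 8 adjacent positions. On chr13:53216565-53216595, plus strand, 7 reads lay over 32 nt, and on chr19:49990861-49990893, plus strand, 9 reads lay over 34 nt. The last 2, chr1:161284170-161284195 and chr5:133707247-133707280, both on the plus strand, had 8 reads over 35 nt each. Another cluster of 35 nt, chr17:40075154-40075187 on the minus strand with 7 reads, was left out because ties in length were ordered by summit. In all 5 clusters chosen, every read covered the summit.

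Summits lay in either part of the cluster in similar numbers. The centre of a summit, taken midway between its first and last base, lay in the upstream part in 104 clusters (40.9%, 95% Wilson interval 35.1 to 47.1), in the downstream part in 115, and exactly in the middle in 35. Of those 35, 32 were single stacks, which are centred by construction because all reads have the same length. Among the 219 off-centre clusters, 47.5% had an upstream summit (interval 41.0 to 54.1). In the isolated, fully listed clusters with lower summits, the share over off-centre clusters was 53.0% (265 of 500), and the difference of -5.51 points had a 95% Newcombe interval that included 0 (-13.3 to 2.41).

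Isolated clusters of the same summit range that had no full-length entry were different in this respect. Their summit lay upstream in 245 of 372 off-centre clusters (65.9%, interval 60.9 to 70.5), against 47.5% in the fully listed ones, a difference of -18.4 points (95% Newcombe interval -26.4 to -10.1). The clusters without a full-length entry were longer, and the difference was -14.6 points among clusters up to 100 nt (interval -27.3 to -1.27) and -20.1 points among longer ones (-30.4 to -9.39). Fully listed clusters with a same-strand neighbour had an upstream share of 53.2%. The isolated ones differed from this by -5.67 points, with an interval including 0 (-15.2 to 4.02). Several humps were also rarer in the 254 clusters than in the isolated ones without a full-length entry, 38.6% against 52.2%, a difference of -13.6 points (interval -21.2 to -5.73). Within length groups the shares were closer, 10.7% against 15.7% up to 100 nt and 68.3% against 70.0% above. The difference in humps over all lengths is therefore not separate from the difference in length.

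**Figure D3:**
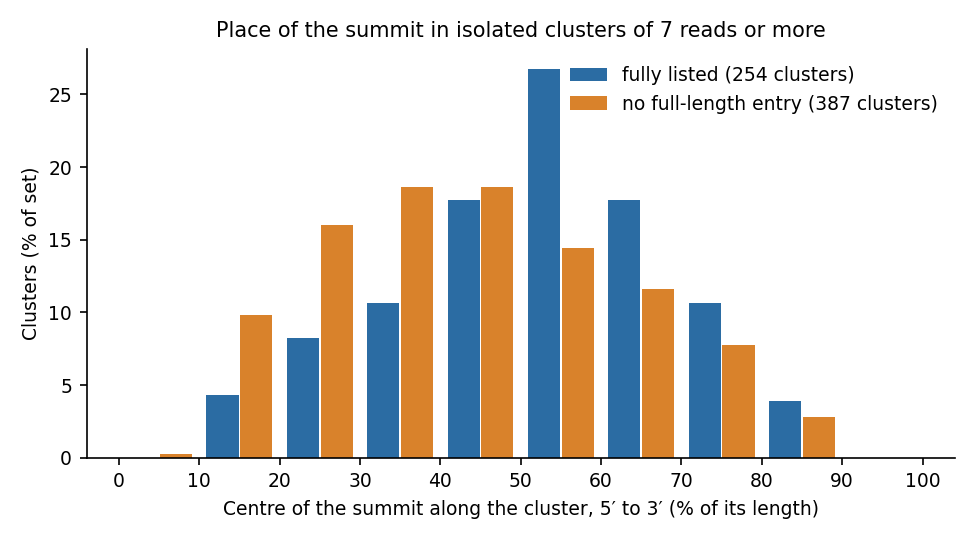
Place of the summit centre along the cluster (horizontal axis, percent of cluster length from 5′ to 3′) as a share of each set (vertical axis, percent), for the 254 fully listed clusters in blue and the 387 isolated clusters of the same summit range without a full-length entry in orange. The blue bars peak at 50 to 60%, which includes the 35 clusters centred exactly, and the orange bars peak below 50%.

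Where a same-strand cluster did lie within 10 kb, it was mostly downstream. The nearest same-strand cluster was between 1082 and 8683551 nt away, with a median of 93254.5 nt, and lay beyond 1 Mb in 37 clusters. It was at most 10000 nt away in 71 of the 254 clusters (28.0%, 95% Wilson interval 22.8 to 33.8). Among the isolated, fully listed clusters with lower summits the share was 11.2% (132 of 1176). The difference of 16.7 points had a 95% Newcombe interval of 11.2 to 22.8. Neighbours without a full-length entry made up more of the 71 than of the 132, with counts given below. Their part in the 16.7 points was not tested. Clusters without a full-length entry had a share of 16.5% (64 of 387), which was 11.4 points below the fully listed ones (interval 4.87 to 18.1). In 23 pairs a member and a cluster of that other set were counted as each other's nearest, once in each set, and the difference was 9.52 points without them (3.53 to 15.9). The rule set only the lower end of these distances, for all 3 sets alike. Gaps of clusters without a full-length entry were measured from the part that was listed.

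The nearest cluster lay downstream in 59 of those 71 sites (83.1%, interval 72.7 to 90.1) and upstream in 12. In the lower clusters the downstream count was 75 of 132 (56.8%), which gave a difference of 26.3 points (95% Newcombe interval 13.1 to 37.3). Much of the downstream excess lay in neighbours without a full-length entry, 43 downstream and 2 upstream of the 254 sites. Fully listed neighbours were more evenly split, 16 downstream and 10 upstream. For the lower clusters these counts were 32 and 8 without a full-length entry, and 43 and 49 fully listed. The difference among fully listed neighbours alone was not tested. The sets shared 8 pairs, and without these the shares were 84.1% and 58.9%, a difference of 25.3 points (11.5 to 36.5). In the clusters of the same summit range without a full-length entry, 13 of 64 had it downstream (20.3%). This contrast is given without a test, because the sets shared 23 pairs, in each of which the nearest cluster was downstream of the member and therefore upstream of the other. Without these pairs the downstream counts were 36 of 48 and 13 of 41 (31.7%). The 71 sites formed 65 pairs, and in 6 pairs both clusters belonged to the 254, so that each such pair counts once in each direction. In the 59 sites whose nearest cluster was outside the 254, it lay downstream in 53 (89.8%, interval 79.5 to 95.3). Lower clusters that were each other's nearest also count once in each direction, which draws that set's share toward an even split. Such pairs were neither counted nor removed, so their part in the 26.3 points was not tested. The intervals also treat the clusters of a pair as separate.

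Both shares were higher in bands of higher summits. Of the isolated, fully listed clusters with summits of 2 or 3 reads, 6.41% had their nearest same-strand cluster within 10 kb, and it was downstream in 15 of those 30. The values were 14.4% and 58.8% for summits of 4 to 6. For summits of 7 to 9, 38 of 152 clusters had one within 10 kb, downstream in 81.6%. For summits of 10 or more the values were 32.4% and 84.8%, with 28 of 33 neighbours downstream. The bands were set after the data were seen. The downstream share among the 254 clusters also varied with distance. It was 76.9% for gaps of 1000 to 2000 nt, 92.3% for 2000 to 5000 nt and 78.9% for 5000 to 10000 nt. It was 62.5% for gaps of 10000 to 50000 nt and 48.8% for 50000 to 200000 nt, near the 48.7% of the lower clusters in that last band.

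**Figure D4:**
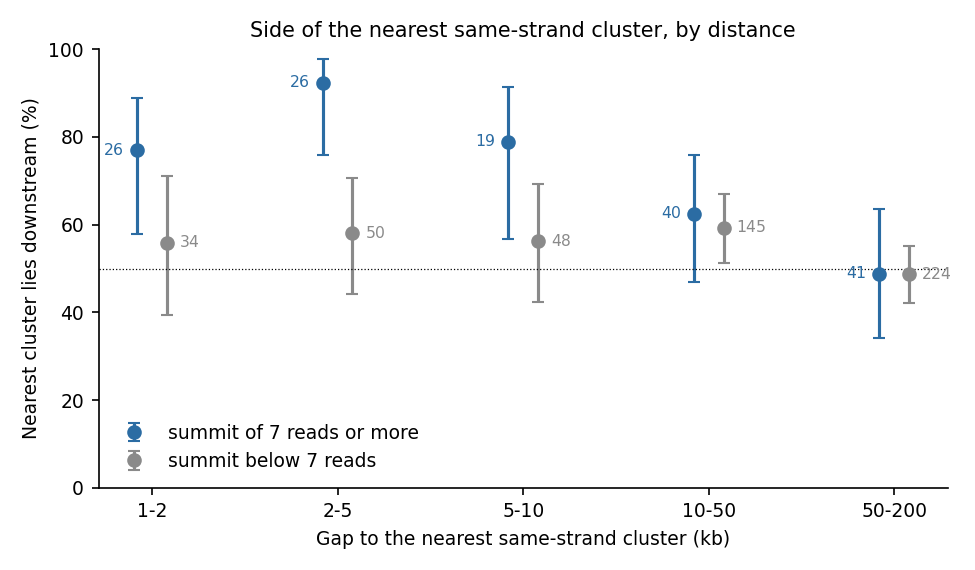
Share of clusters whose nearest same-strand cluster lies downstream (vertical axis, percent, with 95% Wilson intervals) by the gap to it (horizontal axis, kb), for the 254 clusters in blue and the 1176 lower clusters in grey, with the number of clusters beside each point. The blue points lie between 76.9% and 92.3% up to 10 kb and fall to 48.8% at 50 to 200 kb, where both sets coincide.

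The downstream neighbours were lower and mostly cut short. Of the 59, 43 had no full-length entry, and 45 had a lower summit than the site upstream of them, 11 a higher and 3 an equal one. Their median summit was 7 reads against 9 in the sites themselves, which the summit minimum of 7 for the sites favours. Of the 12 upstream neighbours, 2 had no full-length entry. In the lower clusters, 32 of 75 downstream and 8 of 57 upstream neighbours had none. The share without a full-length entry was 34.2% over all primary clusters and 51.7% (516 of 999) over those with summits of 7 or more. Of the 59 downstream neighbours, 34 had summits of 7 or more. Gaps were measured between listed intervals, so an unlisted stretch of a neighbour may lie closer or farther than the gap given.

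The smallest gap was on chromosome 14, plus strand. Its site at 103800792 to 103800907, with a summit of 17, was followed 1082 nt downstream by a cluster of 52 reads with a summit of 11 at 103801990 to 103802197. On the minus strand of chromosome 7, the site at 25164835 to 25164927, with 17 reads, was followed after 1091 nt by a cluster of 13 reads of which only 5 nt were listed. Among the 20 highest sites, 8 had a same-strand cluster within 10 kb, downstream in 6. The site of summit 21 on chromosome 1 was followed after 3662 nt by a cluster of summit 19 with 39 reads, of which 9 of 102 nt were listed. The site of summit 18 on chr11:18416108-18416183 was followed after 2182 nt by a cluster with more reads than itself, 49 against 23, and a summit of 17. The site of 74 reads on chr11:10830253-10830489 was followed after 1324 nt by one of 9 reads. The upstream exceptions were chr1:115292451-115292827, at a gap of 7720 nt, and chr12:6645660-6645742, at 1661 nt.

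Some sites were listed more than once. The 254 clusters took up 319 entries, and 47 clusters (18.5%) had several, all with more than 1 distinct interval. In 1176 lower clusters the share was 8.93%, a difference of 9.58 points. The clusters with several entries were longer, with a median of 125 nt against 94 nt for those with 1 entry. The compared sets also differed in length, with medians of 98 and 47 nt, and length follows the summit that the rule used. The difference over all lengths is therefore not independent of the rule and is given as a description. Among clusters up to 100 nt the shares were 9.92% and 8.73%, with a difference of 1.20 points (-3.23 to 7.69), and among longer ones 27.6% and 11.8% (difference 15.8, 4.19 to 25.9). The shorter entries of these 47 sites lacked only downstream sequence in 47 of 55 cases, only upstream sequence in 6 and both in 2. The site with the most entries, chosen after its values were seen, was chrX:102933448-102933571 on the minus strand, with 9 entries of 3 different intervals, 31 reads and a summit of 14.

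A cluster on the opposite strand lay within 1000 nt of 11 of the 254 sites (4.33%, 95% Wilson interval 2.44 to 7.59). The share in the lower clusters was 3.83% (45 of 1176), and the difference of 0.50 points had an interval including 0 (-1.77 to 3.90). The 11 sites formed 9 pairs, since 2 pairs consisted of members on both sides. In all 9 pairs the minus-strand cluster lay to the left, so that the clusters pointed away from each other. Gaps ranged from 133 to 943 nt with a median of 337 nt. Of the 69 other opposite-strand pairs within 1000 nt in the list, which hold none of the 254 sites, 67 had the same order. That order was known when the sites were chosen, and it is given as a description.

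The tallest paired site was on chromosome 6, minus strand, at 160210437 to 160210660, with a summit of 12 and 60 reads. Its partner 831 nt away on the plus strand at 160211492 to 160211619 also met the rule, with a summit of 7 and 15 reads. The other pair of 2 such sites was on chromosome 11, where the minus-strand site at 65769453 to 65769500 held 8 reads and the plus-strand site at 65769885 to 65770029 held 22, with 384 nt between them. The closest pair was on chromosome 5, where the site at 74063037 to 74063185 on the plus strand held 30 reads with a summit of 11. Its partner, 133 nt away, held only 3 reads.

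In the remaining 6 pairs, the site held more reads than its partner in 4 and fewer in 2. The site on chr17:79849613-79849709, plus strand, held 14 reads against 10. That on chr12:21654744-21654854, plus strand, held 12 against 3, that on chr19:36606008-36606099, minus strand, 12 against 5, and that on chr3:150264131-150264204, minus strand, 11 against 9. The site on chr7:56119102-56119147, minus strand, held 8 reads against 25 in its partner, and that on chr7:26241357-26241446, plus strand, held 13 against 83. The partner's counts cover its whole profile, of which only part was listed in several cases.

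The sites were spread over the genome. They were divided between 135 on the plus strand (53.1%, 95% Wilson interval 47.0 to 59.2) and 119 on the minus strand, and the plus share of the lower clusters, 50.8%, differed by 2.38 points with an interval including 0 (-4.38 to 9.07). Median reads were 17 on the plus and 15 on the minus strand. Chromosome 1 held the most sites, 36, followed by chromosome 5 with 18 and chromosome 2 with 17. As a share of the isolated, fully listed clusters of a chromosome, among chromosomes with at least 30 of these, the sites ran from 9.30% on chromosome 8 (4 of 43, interval 3.68 to 21.6) to 25.7% on chromosome 15 (9 of 35, interval 14.2 to 42.1). These intervals overlapped, and the share over all chromosomes was 17.8%. The sites occupied 223 different megabases, 195 of them with 1 site, and no megabase held more than 3.

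The whole profile was also listed at other loci for 1 of the 254 sites. The cluster of 8 reads with a summit of 7 on chr6:31783382-31783430, plus strand, had the same profile at 5 loci, chromosome 6 and alternate versions of it. For the other 253, no other locus of the list had the same profile in either orientation. Such a comparison has little meaning for simple profiles, and 225 of the 254 had starts with at least 100000 possible arrangements. It cannot show copies that the list leaves out, or reads shared with another locus only in part.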

How the data were processed

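The members, comparison sets and named sites were chosen with earlier results of these data known. Reads were aligned to hg19 with Bowtie, per the submitters' processing notes (version not stated). How clusters were called and filtered, how duplicates were handled and how replicates were merged is not given in the sources used here. Each of the 4013 deposited entries has a strand, a coverage profile and a signal, which equals the highest coverage of the profile in whole reads, without normalization. Library depth is unknown. Entries with identical chromosome, strand and profile were merged where their joint span did not exceed the profile, giving 3604 clusters, 3566 of them on primary chromosomes. Coordinates are printed from 1, with the list read as 0-based. Profiles were split into reads of 25 nt. In 3113 simulated profiles, the splitting returned all read starts exactly. Those profiles were built from 25-nt reads, so this checks the splitting step only. It cannot show that the real reads were 25 nt long. Shares carry 95% Wilson intervals and differences of shares 95% Newcombe intervals. The adjusted family held 12 differences, of which 10 are given above. Each of these 10 whose interval excluded 0 also did so at 99.6%, the level adjusted for 12 comparisons. The adjustment does not cover the choice of definitions after seeing the data, as for the hump and 10-kb neighbour measures. The difference in several entries is a description, because it follows cluster length and so the summit. Differences within length groups, without shared pairs and under alternative settings were outside this family and were not adjusted. Clusters are not replicates of a condition.

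Named sites were the 20 of highest summit, the 5 longest, the 5 shortest, those with an opposite-strand cluster within 1000 nt, those with a recurring profile and those at the threshold. The definitions of humps, the 10-kb neighbour analysis, the length groups and the alternatives for differences were added after seeing the data. Python 3.11.15, numpy 2.4.6, pandas 2.3.3, scipy 1.17.1 and matplotlib 3.10.9 were used.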

Additional observations from a re-analysis of the deposited data

How the results depend on the processing

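The number of sites was 254 and stayed within 1.5 times of that under 8 of 9 alternatives. It was 102 with a summit of at least 10, as the filter itself requires. Median reads were 16, and 19.5 and 26 with summits of at least 8 and 10. The median length of 98 nt was 119 nt with summits of at least 10. The share with an opposite-strand cluster fell from 4.33% to 1.96% in those 102 clusters, and the upstream summit share of 40.9% was 47.5% over off-centre clusters. Of the differences, the higher share with a same-strand cluster within 10 kb was 9.22 points among clusters over 100 nt, that of several entries 1.20 points up to 100 nt, and that of several humps -8.87 points with summits of at least 8, each with an interval including 0. With summits of at least 10 against the rest, the differences in plus strand and in opposite-strand clusters, which were never past the threshold, turned to -2.34 and -2.11 points. The other 68 values of called differences and planned results and 14 of uncalled differences kept their direction and side of the threshold or moved by less than their interval. Annotation and motif results planned for an hg19 genome could not be computed. No paired analysis was possible because replicates are not kept apart in the list, and for the same reason no replicate could be left out. With a median of 16 reads per site, counting error limits comparisons between single sites.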
